A study of Mus musculus with 15 samples.

Results

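The genes described here serve liver fatty acid oxidation and ketogenesis or are targets of PPARA, and they were chosen by symbol from a list of 39 members, each of which had a row among the 19464 rows of the deposited table. Where a symbol stood on more than 1 row, the row with the most reads was kept. Liver RNA was sequenced from Stab1-/- mice, a whole-body knockout of the gene of the scavenger receptor Clever-1 (stabilin-1), and from wildtype mice. There were 4 libraries of each genotype at 2 weeks of age, and at E17.5, late in gestation, there were 3 Stab1-/- and 4 wildtype libraries. All groups had the mixed strain background C57BL/6N;129SvJ, and no treatment is given for any of them. The labels do not say whether the wildtype animals were littermates, and no cell type was sorted, so in these bulk libraries fewer cells of a type and less RNA per cell cannot be told apart.

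The liver takes up fatty acids, ties them to coenzyme A, and shortens them in mitochondria and, for very long or branched chains, in peroxisomes, while cytochrome P450 enzymes of the Cyp4a family oxidise their far end in the endoplasmic reticulum. The acetyl groups released in mitochondria can leave the liver as ketone bodies. PPARA is a nuclear receptor that is activated by fatty acids, binds DNA with RXR, and drives many of these genes in fasting and around birth, when milk fat replaces glucose from the placenta as the main fuel. The members fall into 15 genes of mitochondrial oxidation, 7 peroxisomal genes, 1 ketogenic gene (Bdh1), 3 microsomal Cyp4a genes, 4 genes of uptake and activation, 4 thioesterases, 2 regulators and 3 other targets.

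PPARA and RXR bind a direct repeat of the half-site AGGTCA with 1 base between the copies, so the members' promoters were searched for it. The windows were those of RefSeq on GRCm38.p6, from 250 bases before to 50 after each start site, searched on both strands with at most 2 mismatches in the 12 fixed letters. In all, 32 of the 39 members had a window, and 7 of these 32 (21.9%) held a match, against 4.4% of the 27025 genes with a window. The matches were near Fabp1, Acot4, Creb3l3, Plin2, Cd36, Echs1 and Slc25a20. A match describes the letters and is not evidence of a bound site. The stretches around 4 of the matches are shown. Capitals mark the 13 bases of the match, written in the direction of the gene.
Fabp1: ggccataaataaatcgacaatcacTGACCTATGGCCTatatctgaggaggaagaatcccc
Acot4: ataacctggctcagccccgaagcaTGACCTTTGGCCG
Creb3l3: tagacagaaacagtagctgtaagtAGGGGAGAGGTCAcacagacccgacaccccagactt
Plin2: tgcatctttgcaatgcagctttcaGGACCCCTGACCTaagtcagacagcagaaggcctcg
The Fabp1 stretch lies at chr6:71199788-71199847 on the plus strand, and its match has 1 mismatch, a closeness that 0.644% of the genes with a window reach. The Acot4 stretch lies at chr12:84038342-84038378 on the plus strand and ends just before the start site. The Creb3l3 and Plin2 stretches lie on the minus strand, at chr10:81092765-81092824 and chr4:86670249-86670308. Each of the last 3 matches has 2 mismatches.

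Between 9659 and 10964 kiloreads (units of 1000 reads) per library were counted on genes. A level is given as RPKM, the reads per kilobase of gene scaled to the library's total of reads on genes. Fold changes and p-values come from edgeR's quasi-likelihood test on the read counts with TMM scaling, adjusted by the Benjamini-Hochberg method over all tested genes, and a gene is called when the adjusted p is under 0.05. The fold changes are on the TMM scale and can differ from the ratio of RPKM levels in size and, near 0, in sign. Stab1 itself was checked first, with 0.862 to 1.54 RPKM in Stab1-/- against 7.30 to 11.0 RPKM in wildtype livers at 2 weeks and 3.598 to 5.23 against 14.9 to 21.8 RPKM at E17.5, so the groups stood apart at both ages. The hepatocyte markers Alb and Ttr were abundant in every library, at 37468 RPKM or more for Alb and 2420 RPKM or more for Ttr. Of the other tissues, exocrine pancreas genes summed to 2044 RPKM in wildtype E17.5 replicate 2 against 11.7 to 204.5 RPKM in the other E17.5 libraries, and muscle genes to 50.7 RPKM in wildtype E17.5 replicate 1 against at most 5.24 RPKM in the others. The 4 adipocyte markers summed to at most 0.237 RPKM in any library. Intestinal genes were not among the lists summed here. The study's own list of genes higher in Stab1-/- livers at E17.5 includes some that it describes as intestinal, such as Alpi and Fabp2. The part of other tissue in the members' values at E17.5 was not tested.

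Most of the program rose between E17.5 and 2 weeks. In wildtype livers 36 of the 38 tested members were called higher at 2 weeks, where 34.4% of all tested genes were, and 2 were called lower, where 37.5% were. In Stab1-/- livers 31 members were called higher (35.4% of all tested genes) and 3 lower (36.9%). The median log2 fold change of the members was 1.64 in wildtype and 1.35 in Stab1-/- livers, against -0.03 and -0.02 over all genes. Both age comparisons come from 1 fit to all 15 libraries. No batch is given, so that age and any batch cannot be told apart. Scaled by library totals, where the median of all genes was at -0.38 and -0.25, the members' medians were 1.29 and 1.12, and 33 and 29 members were called higher. Scaled by hepatocyte genes, the members' medians were 0.84 in wildtype and 1.06 in Stab1-/- livers. The order of the genotypes in the size of the rise thus depended on the scaling. Erythroid markers, which are abundant while the fetal liver makes blood, summed to 23596 to 31682 RPKM at E17.5 and to 431 to 1573 RPKM at 2 weeks, and hepatocyte markers to 86205 to 111261 RPKM at E17.5 and 105196 to 155104 RPKM at 2 weeks. Their part in the members' rise was not tested.

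**Figure D1:**
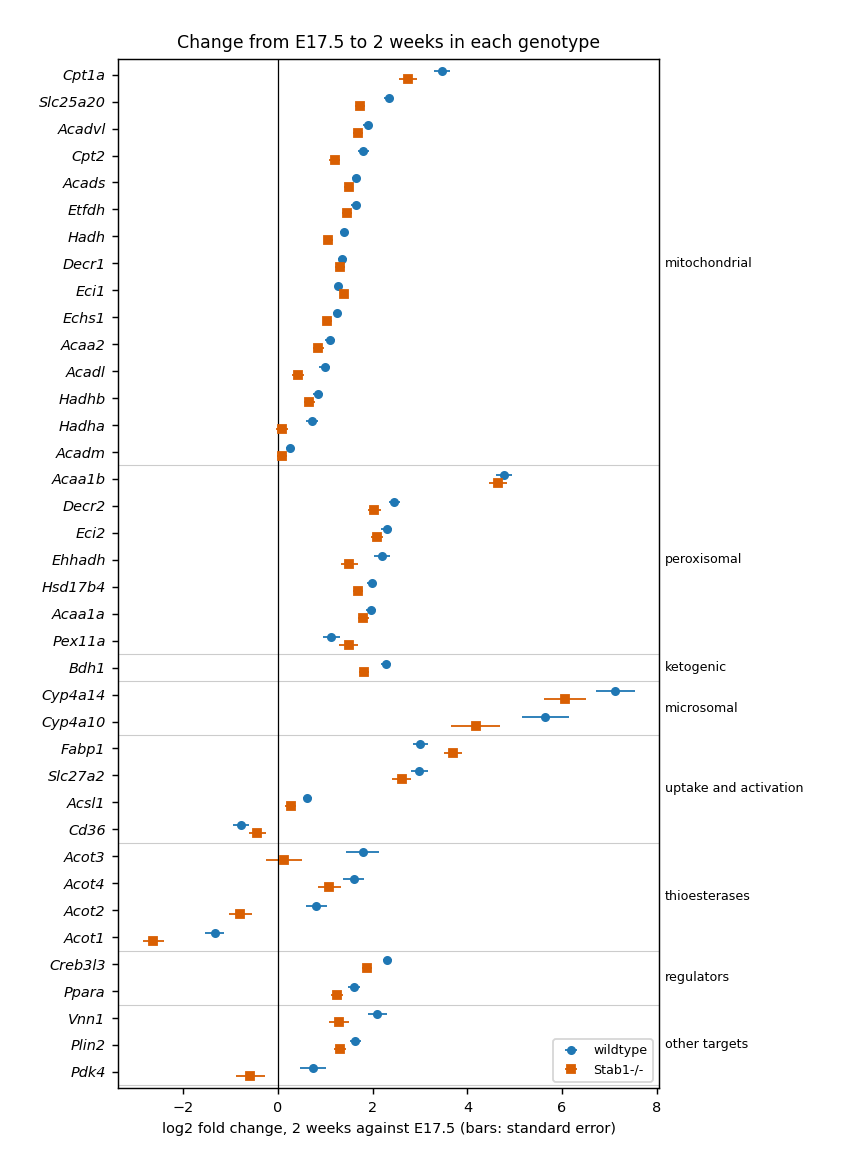
Log2 fold change from E17.5 to 2 weeks for the 38 tested members, in wildtype (circles) and Stab1-/- livers (squares), with bars for the standard error and the members grouped by role. Most points lie right of 0, from 0.25 for Acadm to 7.13 for Cyp4a14 among the members called higher in wildtype livers, while Cd36 and Acot1 lie left of 0 in both genotypes and Acot2 and Pdk4 lie on opposite sides in the 2 genotypes.

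The tested microsomal genes had the largest changes among the members in wildtype livers, and in Stab1-/- livers Cyp4a14 did. Cyp4a14, an omega-hydroxylase of fatty acids, was at 1.45, 0.841, 1.06 and 0.747 RPKM in the 4 wildtype libraries at E17.5 and at 116.8, 98.3, 153.9 and 83.2 RPKM in those at 2 weeks. The ages lay far apart, and the log2 fold change was 7.13 (standard error 0.40, adjusted p = 6.9e-11, edgeR), about 140-fold on the TMM scale. Its relative Cyp4a10 went from 0.320 to 1.09 RPKM to 14.3 to 41.2 RPKM in wildtype livers, a log2 fold change of 5.65 (standard error 0.49). For Cyp4a10, 30.5% of the transcript stretches of 50 bases also occur in other genes, and 25% in Cyp4a32. Uniquely mapped reads may therefore miss part of the Cyp4a10 level. In Stab1-/- livers the log2 fold changes were 6.06 for Cyp4a14 and 4.17 for Cyp4a10. Cyp4a14 thus moved from rank 37 to rank 18 among the 39 members by mean RPKM in wildtype livers. Cyp4a12a, which is known from adult male liver, was too low to be tested, so no direction with age is given for it. It had 1, 1, 8 and 0 reads in the wildtype and 5, 27 and 3 reads in the Stab1-/- libraries at E17.5, and none in the 8 libraries at 2 weeks, which allows up to 3 reads in each, for counting error only. Of its transcript stretches of 50 bases, 48.9% also occur in Cyp4a12b, so its uniquely mapped reads may miss part of its level.

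All 7 peroxisomal members were called higher with age in both genotypes. Acaa1b, a peroxisomal thiolase, was at 15.6, 13.2, 13.0 and 15.9 RPKM in wildtype livers at E17.5 and at 427.5, 284.3, 287.8 and 250.8 RPKM at 2 weeks. The log2 fold change was 4.78 (standard error 0.17) in wildtype and 4.64 (standard error 0.19) in Stab1-/- livers. Its near copy Acaa1a rose less, from 19.0 to 20.7 RPKM at E17.5 to 57.8 to 67.3 RPKM at 2 weeks in wildtype livers, a log2 fold change of 1.97. The ratio of Acaa1b to Acaa1a within a library was therefore 0.626 to 0.838 in wildtype livers at E17.5 and 4.28 to 7.18 at 2 weeks, and 0.541 to 0.648 and 3.94 to 4.25 in Stab1-/- livers. These copies share 34.0% of the Acaa1a transcript in stretches of 50 bases, so the counting of unique reads could lower both. Eci2 and Decr2, which handle double bonds, rose by log2 fold changes of 2.30 and 2.46 in wildtype livers. Ehhadh, the bifunctional enzyme of inducible peroxisomal oxidation, had 2.20, and Hsd17b4, its counterpart for branched chains and bile acid precursors, had 1.98. Pex11a, which promotes division of peroxisomes, had 1.12 in wildtype and 1.49 in Stab1-/- livers, the former not called when scaled by hepatocyte genes (0.32).

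All 15 mitochondrial members were called higher with age in wildtype livers and 13 in Stab1-/- livers, with Acadm and Hadha not called in the latter. Cpt1a and Slc25a20, of the carnitine shuttle that carries long chains into the mitochondrion, had the largest values of the group in both genotypes. Cpt1a, the rate-controlling enzyme of the shuttle, was at 16.8, 13.0, 17.4 and 13.4 RPKM in wildtype livers at E17.5 and at 107.3, 115.6, 162.8 and 138.2 RPKM at 2 weeks, a log2 fold change of 3.47 (standard error 0.18). In Stab1-/- livers it went from 13.9 to 21.7 RPKM to 98.1 to 120.2 RPKM, a log2 fold change of 2.75 (standard error 0.19). The translocase gene Slc25a20 had log2 fold changes of 2.34 and 1.73 and the inner-membrane transferase gene Cpt2 of 1.80 and 1.20 in wildtype and Stab1-/- livers.

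The enzymes of the oxidation spiral had unequal values. Among the acyl-CoA dehydrogenases of the first step, Acadvl for very long chains had a log2 fold change of 1.89 in wildtype livers, Acads for short chains 1.64, Acadl for long chains 0.99 and Acadm for medium chains 0.25. Acadm was already at 184.2 to 212.8 RPKM in wildtype livers at E17.5 and stood at 176.8 to 203.1 RPKM at 2 weeks, so that its ages overlapped, and scaled by library totals its log2 fold change was -0.09. The trifunctional protein subunits Hadha and Hadhb had 0.72 and 0.84. Scaled by hepatocyte genes, Hadha was at -0.11, and Hadhb (0.05) and Acadl (0.17) were no longer called. In Stab1-/- livers Acadl had 0.42 and was not called when scaled by library totals (0.19). Hadh, Echs1 and Acaa2, of the later steps, had 1.39, 1.25 and 1.09, and the auxiliary enzymes Decr1 and Eci1 had 1.36 and 1.27. Etfdh, which passes the electrons to the respiratory chain, had 1.64. Acaa2 was the second most abundant member at both ages in wildtype livers, with means of 398 ± 24.4 and 665 ± 53.2 RPKM (SD, n = 4).

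For ketone bodies, Bdh1, which makes 3-hydroxybutyrate, was at 66.2, 61.9, 59.9 and 72.1 RPKM in wildtype livers at E17.5 and at 250.9, 228.7, 249.5 and 261.7 RPKM at 2 weeks. Its log2 fold change was 2.28 (standard error 0.10) in wildtype and 1.82 (standard error 0.11) in Stab1-/- livers.

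In uptake and activation the members parted. Fabp1, the cytosolic fatty acid carrier, was the most abundant member in each of the 4 groups and rose from 451.8 to 623.4 RPKM to 2798 to 4382 RPKM in wildtype livers, a log2 fold change of 3.01 (standard error 0.16). The transporter and very long chain activating enzyme Slc27a2 rose by 2.99. Acsl1, the main long-chain acyl-CoA synthetase, rose by 0.62 in wildtype and by 0.27 in Stab1-/- livers, where its adjusted p was 0.0403, and scaled by hepatocyte genes it was at -0.18 and -0.03. Scaled by library totals, Acsl1 was at 0.04 in Stab1-/- livers and not called. Cd36, a fatty acid translocase also found on macrophages and endothelium, fell. It was at 38.4, 39.8, 27.4 and 32.0 RPKM in wildtype livers at E17.5 and at 17.6, 15.6, 16.5 and 13.4 RPKM at 2 weeks, with no overlap, a log2 fold change of -0.78 (standard error 0.16, adjusted p = 0.000385, edgeR). In Stab1-/- livers the ages overlapped in Cd36, at 21.5 to 34.6 and 13.6 to 22.0 RPKM, and the log2 fold change was -0.44 (adjusted p = 0.0332, edgeR).

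The regulators rose as well. Ppara was at 19.4, 18.3, 19.3 and 19.7 RPKM in wildtype livers at E17.5 and at 41.6, 40.2, 53.3 and 47.4 RPKM at 2 weeks, a log2 fold change of 1.60 (standard error 0.12), and in Stab1-/- livers of 1.25. Creb3l3, a hepatocyte transcription factor that acts with PPARA in fasting, rose by 2.31 and 1.87. Of the other targets, Vnn1 (pantetheinase) rose by 2.10 and 1.28 and Plin2, a lipid droplet coat protein, by 1.64 and 1.30. Pdk4, which shuts pyruvate out of oxidation, had 0.74 in wildtype livers and -0.58 in Stab1-/- livers, the latter not called (adjusted p = 0.0908, edgeR). The wildtype call of Pdk4 was lost when scaled by library totals (0.40) or by hepatocyte genes (-0.03) and with limma on RPKM (0.25 to 0.27).

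The rest of the pathway was read from a list of 58 other genes, of which 57 could be tested with age. In wildtype livers 41 were called higher and 11 lower, where 34.4% and 37.5% of all tested genes were. In Stab1-/- livers 39 were called higher and 10 lower, where 35.4% and 36.9% were. The largest values in wildtype livers were those of Fgf21, a fasting hormone of the liver, Cyp4f14 and Cyp4a32, which had at most 2, 7 and 5 reads per wildtype library at E17.5 and 17 to 136, 400 to 692 and 50 to 173 reads at 2 weeks. Next came Cyp4a31 and the bile acid and fatty acid ligase Slc27a5, with log2 fold changes of 4.71 and 4.03. Ppargc1a, a coactivator of PPARA, had 0.66 and 0.60 in wildtype and Stab1-/- livers, and Rxra 1.78 and 1.58.

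Between the genotypes no member was called at either age. At 2 weeks, where 2.67% of all tested genes were called, 34 of the 38 tested members lay below 0 on the log2 scale, with a median of -0.21 against -0.01 over all genes. Without adjustment 18 members had p under 0.05, 17 of them lower in Stab1-/- livers, where 23.4% of all tested genes had such a p. DESeq2 called 6 members (6.98% of all tested genes), namely Hadha, Acadl, Ehhadh, Slc25a20 and Acot2 as lower and Fabp1 as higher. In 9 members each Stab1-/- library lay below each wildtype library in RPKM, an order found in 4.5% of the tested genes. The opposite order, found in 10.4% of them, held for Fabp1 alone. The direction of the median depended on the scaling. Scaled by the hepatocyte genes, it was 0.13 at 2 weeks while the median over all genes was 0.34, so that the members stayed below the median gene by about the same distance.

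At E17.5 the members leaned the other way. None was called (0.366% of all tested genes), and 32 of 38 lay above 0, with a median of 0.13 against 0.00 over all genes. Without adjustment 10 members had p under 0.05, all of them higher in Stab1-/- livers (12.9% of all tested genes in either direction), and DESeq2 called none of them (1.64% of all tested genes). In 7 members each Stab1-/- library lay above each wildtype library, an order found in 2.91% of the tested genes, and in Acaa1b each lay below, an order found in 9.3%. Scaled by hepatocyte genes the members' median was -0.07 and that of all genes -0.20.

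**Figure D2:**
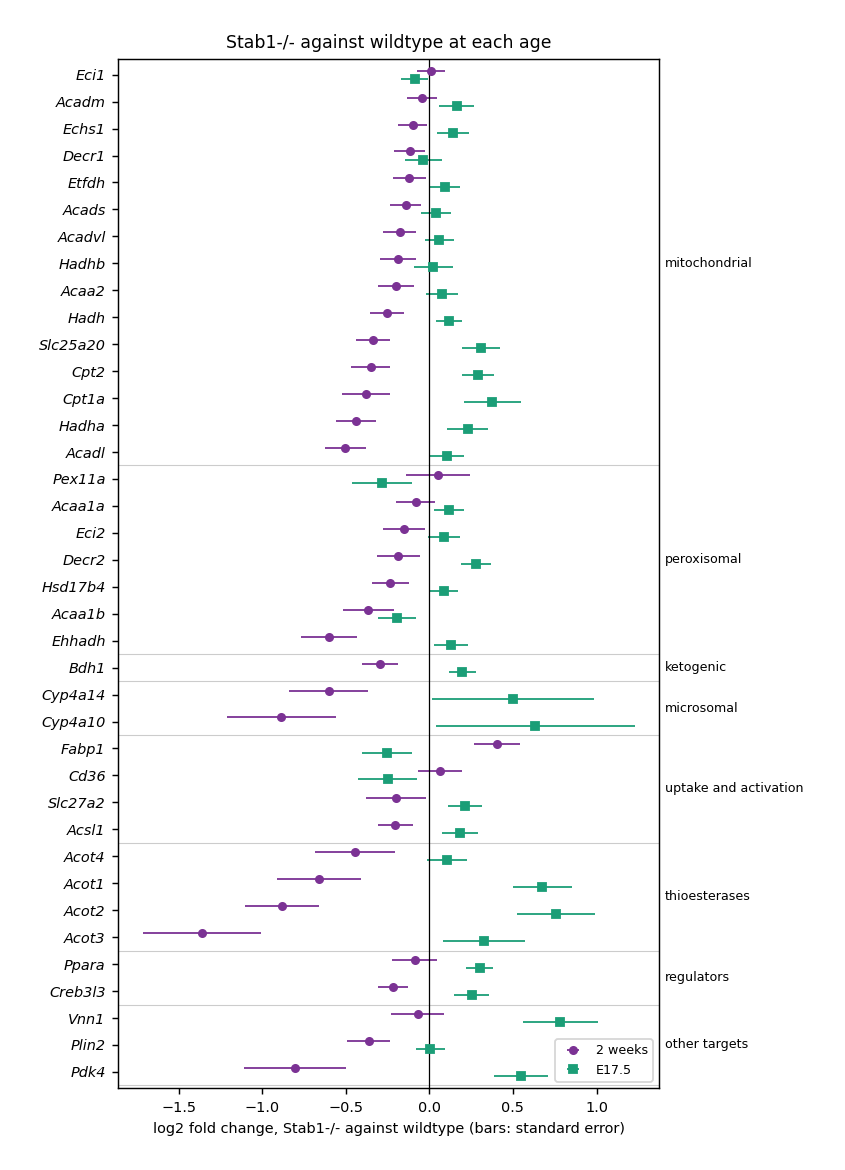
Log2 fold change of Stab1-/- against wildtype livers at 2 weeks (circles) and at E17.5 (squares) for the 38 tested members, with bars for the standard error. At 2 weeks 34 members lie left of 0 and at E17.5 32 lie right of it; Fabp1, Pex11a, Cd36 and Eci1 have the opposite signs at both ages, and no single point passed the adjusted threshold.

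Among the lists of other genes, some had medians of the same sign as the members and some the opposite. The 15 hepatocyte markers had a median log2 fold change of -0.25 at 2 weeks and 0.17 at E17.5, with none called. Their summed level was 130477 to 155104 RPKM in wildtype against 105196 to 131420 RPKM in Stab1-/- livers at 2 weeks, and 86205 to 98532 against 94124 to 111261 RPKM at E17.5. The 6 fasting-responsive genes (such as Igfbp1 and Pck1) lay below 0 at 2 weeks in each case, with a median of -0.69 and 2 called lower, and their summed level was 983 to 2074 RPKM in wildtype against 802 to 939 RPKM in Stab1-/- livers. At E17.5 it was 288 to 375 against 388 to 883 RPKM, and none of the 6 was called. Thus the groups stood apart in the fasting-responsive sum at both ages and in opposite directions. Most of the sum at E17.5 was Igfbp1, with means of 206.8 RPKM in wildtype and 484.1 RPKM in Stab1-/- livers, while Pck1 had 2.93 and 1.66 RPKM. Most of it at 2 weeks was Pck1, with 840.1 and 478.8 RPKM. The 6 feeding-responsive genes had a median of -0.08 at 2 weeks, ranging from -0.60 to 1.56, with none called. At E17.5 all 6 lay below 0, from -1.16 to -0.007, with a median of -0.10 and 1 called lower. The 7 endothelial markers had medians of -0.34 at 2 weeks, with 1 called lower, and 0.19 at E17.5, with none called. Of the 6 stellate cell markers 3 were called lower at 2 weeks, where the median was -0.57, and none at E17.5, where it was -0.03. Neutrophil markers had the opposite signs, with medians of 0.99 and -0.23 and none called. Their summed level was 167.6 to 389 RPKM in Stab1-/- against 24.7 to 126.5 RPKM in wildtype livers at 2 weeks, and 2978 to 3361 against 4343 to 7288 RPKM at E17.5, apart at both ages. Kupffer cell and macrophage markers had medians of 0.17 and 0.09, with none called. The time of feeding and of sampling is not given, and the part of these lists in the members' values was not tested.

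**Figure D3:**
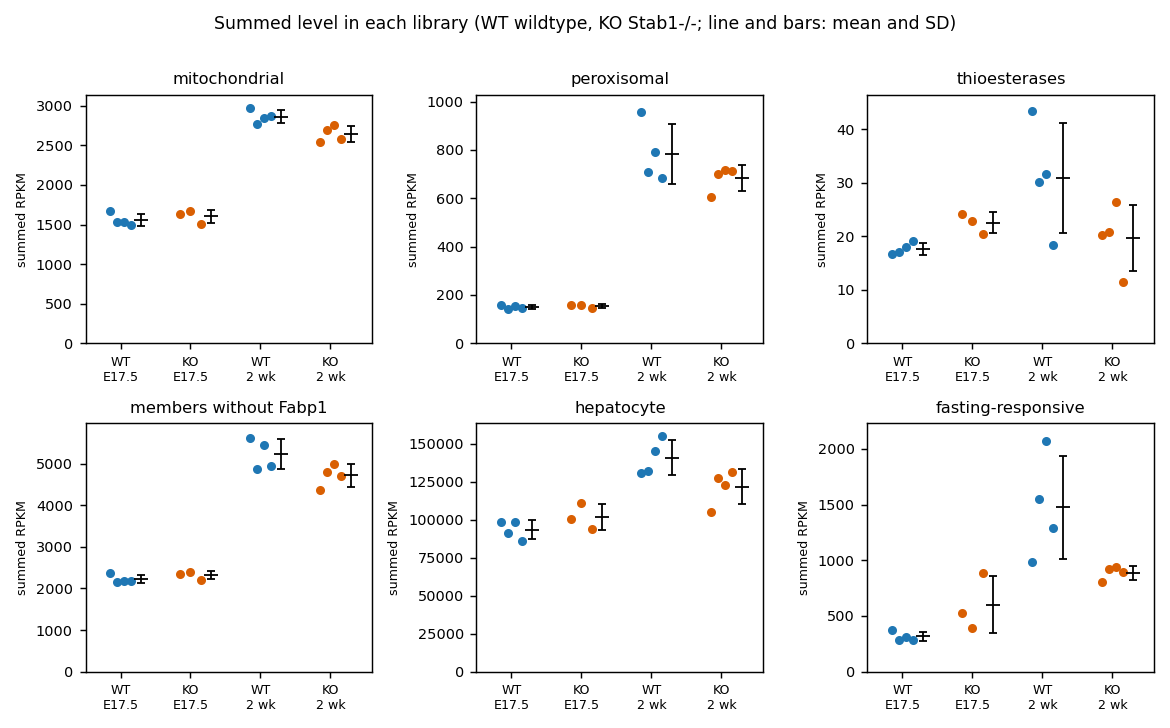
Summed RPKM in each library for 3 groups of members, for all members without Fabp1, for the hepatocyte markers and for the fasting-responsive genes; each point is a library, and the line with bars is the mean and SD of its group. At 2 weeks the fasting-responsive sums of the Stab1-/- libraries, 802 to 939 RPKM, lie below the wildtype ones, 983 to 2074 RPKM.

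At 2 weeks the mitochondrial genes farthest below 0 were Acadl and Hadha. Acadl was at 115.3, 150.3, 136.7 and 133.2 RPKM in Stab1-/- and at 174.5, 158.4, 178.4 and 199.9 RPKM in wildtype livers. Each Stab1-/- library lay below each wildtype library, and the log2 fold change was -0.50 (standard error 0.12, adjusted p = 0.0525, edgeR). Hadha was at 67.2 to 78.6 RPKM against 83.5 to 106.7 RPKM, again apart, with a log2 fold change of -0.44 (adjusted p = 0.0747, edgeR). Its partner subunit gene Hadhb overlapped, at 162.8 to 201.1 RPKM in Stab1-/- against 162.2 to 219.9 RPKM in wildtype livers, with a log2 fold change of -0.19. Of the Hadhb transcript stretches of 50 bases, 62.4% also occur in other genes, against 0.655% for Hadha. What this does to the count of unique Hadhb reads was not tested. Acadvl had -0.18, at 241.8 to 267.0 against 270.0 to 281.0 RPKM, with groups apart. Acadm, Echs1 and Eci1 had log2 fold changes between -0.10 and 0.01 with standard errors of 0.09. Without wildtype 2-week replicate 2, 4 members were called, namely Acadl, Hadha, Ehhadh and Acot2, and without any single other library at most 1 was. Calls over all genes moved as well, between 116 and 648 in these fits, against 340 with no library left out.

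Ehhadh, the peroxisomal gene with the lowest value, was at 47.2, 60.3, 53.8 and 61.2 RPKM in Stab1-/- livers and at 111.8, 66.1, 79.1 and 62.1 RPKM in wildtype livers. The groups did not overlap, although the lowest wildtype library was close to the highest Stab1-/- one, and the log2 fold change was -0.60 (standard error 0.17, adjusted p = 0.0782, edgeR). Wildtype replicate 1, the highest library in Ehhadh, was also the highest of its group in Acaa1b, Pdk4 and Plin2, among others. Bdh1 was at 192.7 to 227.7 RPKM in Stab1-/- and 228.7 to 261.7 RPKM in wildtype livers, a log2 fold change of -0.30 (adjusted p = 0.136, edgeR). Cyp4a10 and Cyp4a14 had -0.89 and -0.60 with overlapping groups and standard errors of 0.32 and 0.24.

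Fabp1 had the highest log2 fold change of the 4 members above 0 at 2 weeks. It was at 5360, 4751, 4437 and 4410 RPKM in Stab1-/- livers and at 4382, 3540, 2798 and 2802 RPKM in wildtype livers at 2 weeks. Each Stab1-/- library lay above each wildtype library, with a log2 fold change of 0.40 (standard error 0.14, adjusted p = 0.118, edgeR). At E17.5 it was at 393.6, 482.4 and 406.5 RPKM against 623.4, 599.8, 451.8 and 453.1 RPKM, with overlap and a log2 fold change of -0.25 (standard error 0.15). The members' summed level depended on Fabp1, and was 7755 to 10000 RPKM in wildtype and 9109 to 9723 RPKM in Stab1-/- livers at 2 weeks with it, and 4878 to 5618 and 4363 to 5001 RPKM without it.

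Ppara itself overlapped between the genotypes at 2 weeks, at 45.5, 41.4, 56.4 and 40.5 RPKM in Stab1-/- livers and 41.6, 40.2, 53.3 and 47.4 RPKM in wildtype livers. The log2 fold change was -0.09 (standard error 0.14), and a difference of this size lies within the spread between replicates. At E17.5 it was at 21.4, 21.8 and 24.7 RPKM against 19.4, 18.3, 19.3 and 19.7 RPKM, with each Stab1-/- library above each wildtype library and a log2 fold change of 0.30 (standard error 0.08, adjusted p = 0.184, edgeR). Creb3l3 had -0.22 at 2 weeks, with groups apart, and 0.25 at E17.5. Vnn1 had the highest value of the members at E17.5, 0.78 (standard error 0.22, adjusted p = 0.206, edgeR), and Pdk4 was at 7.29, 7.83 and 8.61 RPKM against 6.67, 6.51, 5.07 and 4.25 RPKM, apart, with a log2 fold change of 0.55.

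Whether the genotype effect differed between the ages was tested directly by the interaction term of the fit to all 15 libraries. It was called in 3 members, against 1.81% of all tested genes, and each had a lower log2 value at 2 weeks than at E17.5. They were Acot2 (-1.60, standard error 0.33, adjusted p = 0.0307, edgeR), Acot1 (-1.29, adjusted p = 0.0437, edgeR) and Slc25a20 (-0.61, adjusted p = 0.0453, edgeR). In all, 34 of 38 members were below 0, with a median of -0.35 against 0.00 over all genes. An unadjusted p under 0.05 (edgeR) was found in 17 members and in 23.2% of the tested genes. The hepatocyte markers had a similar median of -0.335, with 14 of 15 below 0 and none called. Endothelial (-0.52), stellate (-0.78) and fasting-responsive (-0.83) medians were lower still. Neutrophil (0.68), feeding-responsive (0.18) and Kupffer cell and macrophage (0.12) medians were above 0. DESeq2 called 14 members (7.68% of all tested genes), 13 of them below 0 and Fabp1 above it. The 3 calls lay near the threshold. Without any one of wildtype 2-week replicate 3, Stab1-/- 2-week replicate 1, Stab1-/- E17.5 replicate 1, and wildtype E17.5 replicates 1 and 2, none of the members was called, and without wildtype 2-week replicate 2 there were 6. Calls over all genes ranged from 30 to 684 when 1 library was left out, against 251 with none left out. Scaled by hepatocyte genes, with the median of all genes at 0.52, no member was called below 0, the values were -1.10 for Acot2, -0.78 for Acot1 and -0.11 for Slc25a20, and 2 members were called above 0, Fabp1 among them.

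The thioesterases Acot1 to Acot4 cleave fatty acyl-CoA back to free fatty acid and coenzyme A, Acot1 in the cytosol, Acot2 in mitochondria, and Acot3 and Acot4 in peroxisomes. Their 4 genes lie within 72.5 kb of each other on chromosome 12 (chr12:83987861-84060402 in the GENCODE annotation of GRCm38; the build used for the counts is not given in the sources used here). Acot2 was at 1.68, 1.12, 1.32 and 2.19 RPKM in wildtype and at 2.96, 2.24 and 2.47 RPKM in Stab1-/- livers at E17.5. At 2 weeks it was at 2.76, 1.82, 2.30 and 1.82 RPKM in wildtype and at 1.24, 1.62, 1.31 and 0.835 RPKM in Stab1-/- livers. The genotypes did not overlap at either age and stood in opposite order, with log2 fold changes of 0.76 (standard error 0.23) at E17.5 and -0.88 (standard error 0.22, adjusted p = 0.0546, edgeR) at 2 weeks. The gap at E17.5 was small, with 52 reads both in wildtype replicate 4 (2.19 RPKM) and in Stab1-/- replicate 2 (2.24 RPKM). Acot2 thus rose with age in wildtype livers by 0.81 (adjusted p = 0.00364, edgeR) and fell by 0.79 in Stab1-/- livers (adjusted p = 0.00724, edgeR), the former not called at 0.46 when scaled by library totals or at -0.00 when scaled by hepatocyte genes.

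Acot1, in turn, fell with age in both genotypes. It was at 4.59, 4.48, 5.62 and 6.66 RPKM in wildtype and at 10.3, 6.87 and 7.38 RPKM in Stab1-/- livers at E17.5, with no overlap, and at 1.59, 1.23, 2.23 and 1.503 RPKM against 1.04, 1.33, 1.20 and 0.856 RPKM at 2 weeks, with overlap. The log2 fold changes with age were -1.34 in wildtype and -2.64 in Stab1-/- livers. Within a library, the ratio of Acot1 to Acot2 was 2.74 to 4.26 in wildtype livers at E17.5 and 0.577 to 0.974 at 2 weeks. These levels rest on few reads, 13 to 37 for Acot1 and 18 to 64 for Acot2 per library at 2 weeks, and 23.9% of the Acot1 transcript is shared with Acot2 in stretches of 50 bases. The gap between the genotypes in Acot1 at E17.5 was small, with 111 reads in wildtype replicate 4 and 112 in Stab1-/- replicate 2.

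Acot3 and Acot4 had no call between the genotypes. Acot3 had the lowest log2 fold change of the members at 2 weeks, -1.36 (standard error 0.35, adjusted p = 0.0611, edgeR). It was at 3.83, 4.67, 6.91 and 1.78 RPKM in Stab1-/- and at 13.4, 10.7, 12.9 and 4.48 RPKM in wildtype livers, where only replicate 4 overlapped with the Stab1-/- libraries. Without that library Acot3 was called, with a log2 fold change of -1.60. With age Acot3 rose by 1.79 in wildtype livers and had 0.13 (standard error 0.38) in Stab1-/- livers, while Acot4 rose by 1.60 and 1.08.

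**Figure D4:**
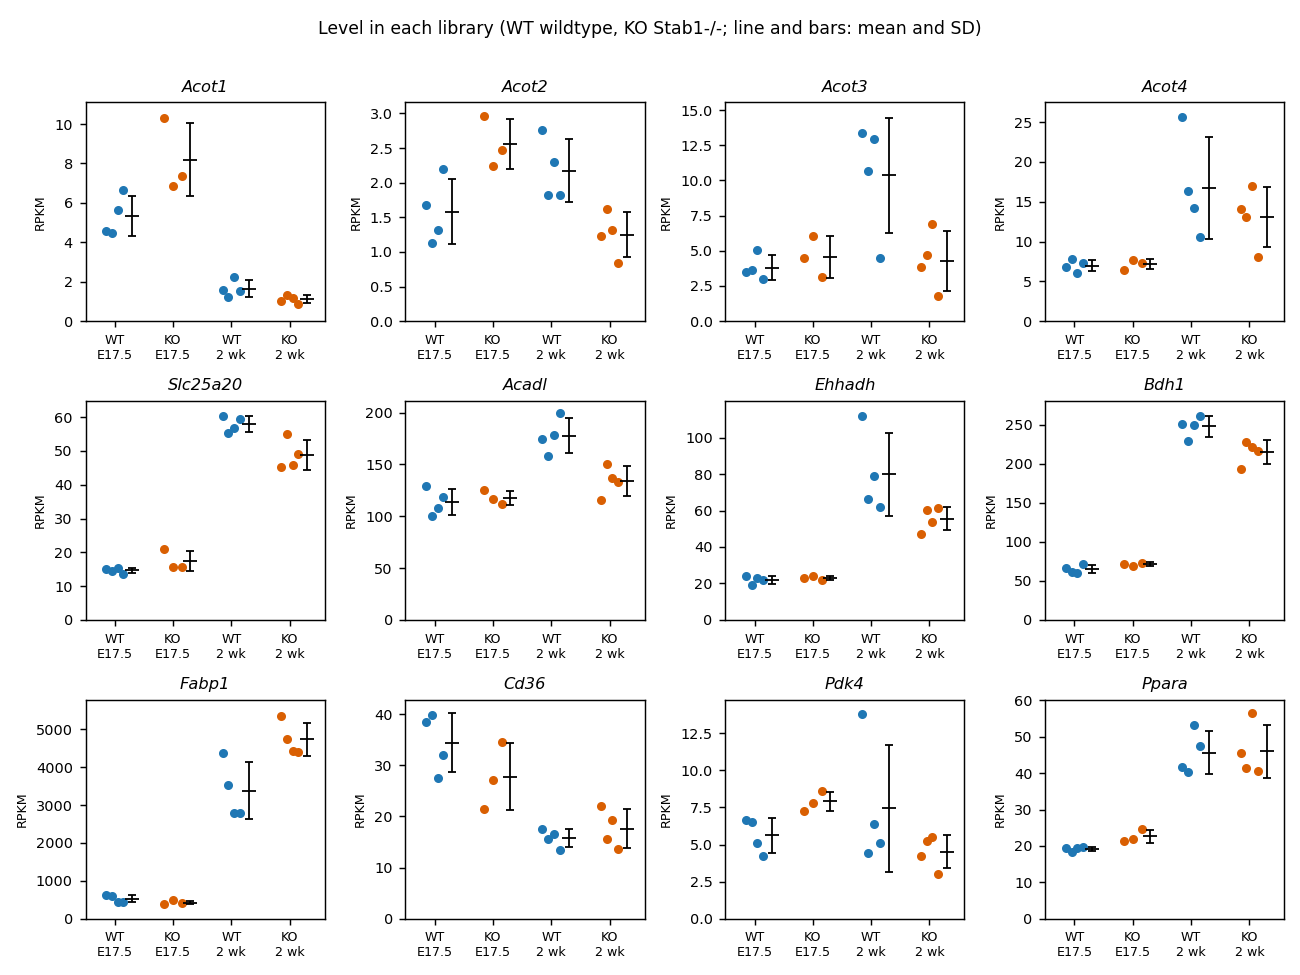
RPKM of 12 members in each library, with the mean and SD of each group as a line with bars, all axes starting at 0. Acot2 shows Stab1-/- above wildtype at E17.5 (2.24 to 2.96 against 1.12 to 2.19 RPKM) and below it at 2 weeks (0.835 to 1.62 against 1.82 to 2.76 RPKM), and Fabp1 shows Stab1-/- above wildtype at 2 weeks.

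Slc25a20, the third member with a call, was at 15, 14.5, 15.4 and 13.7 RPKM in wildtype and at 21.0, 15.6 and 15.7 RPKM in Stab1-/- livers at E17.5, apart by a small gap. At 2 weeks it was at 60.5, 55.3, 56.8 and 59.4 RPKM against 45.2, 55.0, 45.8 and 49.2 RPKM, again apart by a small gap and in the opposite order. The log2 fold changes were 0.31 (standard error 0.11) and -0.34 (standard error 0.10). Its neighbours in the shuttle, Cpt1a and Cpt2, had interaction values of -0.72 and -0.60, not called (adjusted p = 0.0989 and 0.0572, edgeR).

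Of the 58 other pathway genes, 56 were tested between the genotypes at 2 weeks and 54 at E17.5. At 2 weeks 3 were called (5.36%, against 2.67% of all tested genes) and at E17.5 1 was (1.85%, against 0.366%). Their lean was weaker than that of the members. The medians were -0.08 at 2 weeks (37 of 56 below 0), 0.06 at E17.5 and -0.075 in the interaction. Those of the members were -0.21, 0.13 and -0.35. Acox2, the peroxisomal oxidase of branched chains and bile acid precursors, was higher in Stab1-/- livers at both ages, at 137.6, 146.3, 149.2 and 143.1 RPKM against 76.3, 91.0, 94.2 and 99.0 RPKM at 2 weeks and at 83.0, 82.6 and 84.7 RPKM against 57.5, 55.2, 55.0 and 53.0 RPKM at E17.5. The groups were apart at both ages, with log2 fold changes of 0.58 (adjusted p = 0.0229, edgeR) and 0.66 (adjusted p = 0.00696, edgeR). Ucp2, a mitochondrial carrier also abundant in blood and immune cells, was lower at 2 weeks, at 11.8 to 16.5 against 20.9 to 24.8 RPKM (log2 fold change -0.76, adjusted p = 0.0114, edgeR), and its interaction value of -0.77 was called. Cyp4a31 was lower at 2 weeks, at 31.0 to 35.0 against 38.0 to 50.4 RPKM (-0.53, adjusted p = 0.0303, edgeR).

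By the median, replicates varied slightly less in the members than over all genes in each group. The members and all genes shared a minimum level but were not matched for level. Over members with a mean of at least 5 RPKM, the median coefficient of variation was 7.26% in wildtype and 7.63% in Stab1-/- livers at E17.5, and 11.9% and 9.14% at 2 weeks. Over all genes at that level it was 9.03%, 8.93%, 12.6% and 10.02%, in the same order. Acadvl varied least in wildtype livers at 2 weeks, by 1.93%, and Pdk4 most, by 57.9%, since wildtype replicate 1 was at 13.8 RPKM and the other libraries at 4.44 to 6.41 RPKM.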

How the data were processed

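Liver RNA of 15 mouse libraries was sequenced. The authors deposited 1 table with 19464 rows that gives, per gene and library, the count of uniquely mapped reads, the RPKM (reads per kilobase of gene, scaled to the reads on genes, recomputed within 7.68e-12 percent) and the coverage, the percent of the gene model covered. The aligner, the genome build and the use of strand are not given in the sources used here. From the deposited counts, quasi-likelihood tests were run in edgeR 4.0.16 (R 4.3.3; TMM scaling; filterByExpr, min.count 10, min.total.count 15; two-sided; Benjamini-Hochberg over all tested genes), for genotype within each age and for age and the interaction over all 15 libraries. The deposited RPKM values served for levels and the deposited coverage percent entered no test. The study's methods count the samples as mice, while the labels name no animals; p-values measure the spread between these libraries. No library was a repeat of another (smallest chi-square per degree of freedom within a group 5.41). Floors of 3 reads cover counting error only.

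The members and lists were chosen with earlier results of these data known. All members could be named. Of the 58 other pathway genes, those called with the largest changes, Ppargc1a, Rxra and a few others not reported here could be named, and of marker lists the 2 genes with most reads. Igfbp1 and Pck1 were named as examples of a list after their values were seen. Alternatives were DESeq2 1.42.0, limma 3.58.1 on log2(RPKM + 0.1) and log2(RPKM + 1), other scalings and filters, the replicate block, GC offsets and leaving out each library. The fits were tested on simulated data. Transcript stretches and gene positions come from GENCODE vM21, promoters from RefSeq.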

Additional observations from a re-analysis of the deposited data

Results flagged for a closer look

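In 7 of 115 groups of 4 libraries a single library stood far from the other 3 of its group, where chance at about 1 in 20 gives 5.75. In wildtype livers at E17.5, replicate 2 had 16.4 RPKM of Cpt2 (nearest library 18.5) and 64.5 RPKM of Hadha (nearest 74.3). It is the library with 2044 RPKM of exocrine pancreas genes, whose part in these values was not tested. Replicate 1 of that group had 434 RPKM of Acaa2 (nearest 389) and 38.7 RPKM of Creb3l3 (nearest 32.9). Replicate 3 had 0.301 RPKM of Cyp4a12a, or 8 reads (nearest 0.0395 RPKM, 1 read). At 2 weeks, wildtype replicate 1 had 203 RPKM of Acadm (nearest 181), and Stab1-/- replicate 2 had 113 RPKM of Creb3l3 (nearest 124).

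The genotype effect at 2 weeks was lower than that at E17.5 in Slc25a20 by a log2 difference of -0.61, in Acot1 of -1.29 and in Acot2 of -1.60, each by the interaction term of edgeR with Benjamini-Hochberg adjustment.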

How the results depend on the processing

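The members' median relative to all genes kept its direction under each alternative; the wildtype age value of it was 1.54 with limma on log2(RPKM + 1). At 2 weeks the members called were 6 by DESeq2, 3 without the filter on low counts and 4 in the fit to all 15 libraries, and the genes called were 887 by DESeq2, 219 by limma on log2(RPKM + 0.1), 217 with a mean RPKM of at least 1, 183 scaled by hepatocyte genes and 703 over all 15 libraries. At E17.5 DESeq2 called 219 genes and hepatocyte scaling 100. For the interaction, members called were 14 by DESeq2, 1 by library totals and 1 by limma on log2(RPKM + 0.1) with or without the RPKM minimum, and genes called 1066 by DESeq2, 440 by limma on log2(RPKM + 1) and 3284 by hepatocyte scaling. The cause of these shifts was not tested.

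The same-numbered libraries of the genotypes correlated between 0.015 and 0.195 at 2 weeks and between -0.161 and 0 at E17.5, and libraries of different numbers between -0.252 and 0.278 and between -0.101 and 0.271. At 2 weeks 3 of the 4 same-numbered pairs were over 0.1, but not every library correlated best with its own number. No source says what a number stands for, so the samples were not treated as paired. With the replicate block, 7 members and 1181 genes were called at 2 weeks (5 and 741 with GC offsets), 23 genes at E17.5 (32), and 8 members and 1088 genes in the interaction (7 and 771).

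Scaling by hepatocyte genes moved the members' medians to 0.13 (2 weeks), -0.07 (E17.5), 0.84 (age, wildtype), 1.06 (age, Stab1-/-) and 0.15 (interaction), and changed the sign at 2 weeks of Slc25a20 (0.00), Hadh (0.08), Bdh1 (0.05) and Creb3l3 (0.13), at E17.5 of Bdh1 (-0.00), with age in wildtype of Acadm (-0.55), Hadha (-0.11), Acsl1 (-0.18), Acot2 (-0.00) and Pdk4 (-0.03), with age in Stab1-/- of Acsl1 (-0.03), and in the interaction of Hadh (0.16), Decr2 (0.06), Bdh1 (0.05), Acsl1 (0.16) and Creb3l3 (0.08). The age median in wildtype was 1.29 by library totals and by limma on log2(RPKM + 0.1), with or without the minimum, and 1.27 with a pseudocount of 1, and in Stab1-/- livers 1.12 and 1.09. Acadm was at -0.09 with age in wildtype livers in these 4 fits.

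Leaving out each library gave, at 2 weeks, 0 to 4 members and 116 to 648 genes called and a median of -0.26 to -0.17 (relative to all genes -0.25 to -0.16). At E17.5 it gave 0 members, 27 to 46 genes and 0.07 to 0.18 (0.07 to 0.19). With age it gave 36 to 38 members, 9499 to 9763 genes and 1.63 to 1.73 (1.66 to 1.76) in wildtype, and 32 to 33 members, 9560 to 9759 genes and 1.34 to 1.46 (1.36 to 1.49) in Stab1-/- livers. For the interaction it gave 0 to 6 members, 30 to 684 genes and -0.42 to -0.31 on both scales. Levels near 1 RPKM rest on few reads.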
